A study of Mus musculus with 4 samples.

Results

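Spp1 encodes osteopontin, a secreted, heavily phosphorylated glycoprotein that binds integrins through an arginine-glycine-aspartate motif and also binds the surface receptor CD44. Thrombin and matrix metalloproteinases cut it, and the kinase FAM20C phosphorylates it. In the brain it is best known from microglia, where its mRNA marks cells of developing white matter and of injured or diseased tissue, and some neurons also make it. The measurements below give Spp1 in the interneurons, microglia and other cells of a sorted single-cell preparation from mouse cortex and hippocampus.

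The study took cells that carried the red fluorescent reporter TdTomato from frontal cortex and hippocampus of juvenile mice, at postnatal day 18 to 20, and counted their mRNA molecules with unique molecular identifiers (UMIs) on droplets of the 10x system. The mice carried Nkx2.1-Cre, which acts in the medial ganglionic eminence (MGE), where parvalbumin (PVALB) and somatostatin (SST) interneurons and part of the neurogliaform cells (NGFC) are born, together with the Ai14 TdTomato reporter. The WT groups had both Grin1 alleles intact and the Grin1-null groups had floxed alleles of Grin1, the obligate subunit of the NMDA receptor, so that the gene is deleted in Cre-expressing cells from their birth on. Several mice of each genotype went into the libraries, and mice of both sexes were used. Nkx2.1-Cre also acts in some glial lineages, and the preparation held many cells that are not interneurons.

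Spp1 is 1 of the 43348 genes of the count matrices and was found by its symbol. It was selected on these data, for a higher level in cortical PVALB cells of the Grin1-null mice, so this contrast is given below as a description with no test. Each region had 3 WT and 2 Grin1-null libraries. The first replicate of every group used the older 10x chemistry, version 2, while later replicates used version 3. In these groups 26201 of 26987 cells passed the filter. Barcodes that also occur in another library were 183 of the kept cells (0.698%) and 2 of the 230 cells with Spp1 (0.870%). They are a possible sign of reads assigned to the wrong library, and their cause was not tested.

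WT cortex replicates 1, 2 and 3 held 9306756, 14212183 and 28057207 UMIs, and the Grin1-null cortex replicates 1 and 2 held 1488601 and 25688337. In hippocampus the totals were 10555408, 8782181 and 20639002 in WT replicates 1, 2 and 3, and 3856745 and 47338167 in Grin1-null replicates 1 and 2. The median kept cell held between 1479 UMIs (WT hippocampus replicate 2) and 9763 UMIs (Grin1-null hippocampus replicate 2). Grin1-null cortex replicate 1 was the smallest library, with 177 kept cells, of which 28 were PVALB cells. Levels are in CPM, the share of all UMIs of the cells named that the gene holds on the usual CPM scale, with exact Poisson 95% intervals, and shares of cells have Wilson 95% intervals. These intervals cover counting error only.

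Grin1 itself was counted first, to check the genotype labels. In PVALB cells its level was 113, 215 and 178 CPM in WT cortex replicates 1, 2 and 3, against 42.5 and 23 CPM in the Grin1-null cortex libraries. In SST cells of cortex it was 153, 253 and 232 CPM in WT and 36.7 and 27.9 CPM in Grin1-null libraries. In hippocampal PVALB cells the means were 131 ± 32.2 CPM (SD, n = 3) in WT and 19.7 ± 4.48 CPM (SD, n = 2) in Grin1-null libraries, and in hippocampal SST cells 150.1 ± 29.3 and 22.1 ± 0.403 CPM. In both classes and both regions every Grin1-null library lay below every WT library.

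The question of which cells hold Spp1 came next. It was found almost entirely in cortical interneurons: the kept cells held 1471 Spp1 UMIs in 230 of 26201 cells, and 1429 of these UMIs (97.1%) were in the 11097 interneurons. PVALB cells held 753 UMIs (51.2%) in 61 of 2161 cells, and SST cells, with which the tyrosine hydroxylase (TH) interneurons are counted, held 676 UMIs (46.0%) in 155 of 6746 cells. Of the PVALB UMIs, 617 were in the Grin1-null cortical cells for which the gene was chosen. In WT libraries alone the order was the other way, with 130 of 576 UMIs in PVALB and 425 in SST cells. These classes were given by cluster. With each cell placed by the marker list with its highest score, 582 of the 753 PVALB UMIs were in cells that scored as SST. Another 79 were in cells that scored as PVALB. Of the SST UMIs, 595 were in cells that scored as SST and 43 in cells that scored as PVALB. By region, 1418 UMIs (96.4%) were in cortex and 53 in hippocampus. The Spp1 message was thus carried by few cells, 2.82% of PVALB cells (2.20% to 3.61%) and 2.30% of SST cells (1.97% to 2.68%).

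The other classes gave few Spp1 UMIs or none. Over all libraries the level was 37.4 CPM in PVALB cells (34.8 to 40.2) and 11.7 CPM in SST cells (10.8 to 12.6). The PVALB value rests on the libraries that chose the gene, since 588 of its 753 UMIs were in Grin1-null cortex replicate 2. Pooled over WT cortex the order was the other way, with 12.4 CPM in PVALB and 16.0 CPM in SST cells. In WT cortex replicates 1 and 3, PVALB cells were at 14.5 and 12.4 CPM and SST cells at 18.1 and 18.0 CPM. In replicate 2 PVALB cells were the higher, at 11.6 against 9.98 CPM. The level was 2.84 CPM in microglia (0.0719 to 15.8), from 1 UMI, and 9.63 CPM in the 43 microglia kept by a stricter cell filter. In the oligodendrocyte lineage it was 0.0513 CPM (0.0106 to 0.150), from 3 UMIs in 12017 cells. NGFC interneurons, which come from the same eminence, gave 0 UMIs in 2190 cells, which allows a level of up to 0.173 CPM (3 counts of the total) and a detected UMI in up to 0.137% of cells at this depth. Glutamatergic neurons (980 cells), astrocytes (431 cells) and endothelial cells (94 cells) also gave 0 UMIs, which allows a detected UMI in up to 0.306%, 0.696% and 3.19% of cells. Cells that hold the message below detection are not counted in these shares.

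Oligodendrocyte lineage cells served as a measure of free RNA, since they are not known as a source of osteopontin in healthy tissue. Spp1 was seen in 0.0250% of them (0.00849% to 0.0734%), at a median depth of 4002 UMIs, against 2.82% of PVALB cells at a median of 8344 UMIs. Of the oligodendrocyte lineage cells, 8536 were hippocampal, where Spp1 was rare. Over the WT cortex libraries the mean shares before thinning were 0.0718% in the oligodendrocyte lineage and 3.02% in PVALB cells. With each cell thinned to 1000 UMIs, Spp1 was seen in 1.45% of PVALB cells, 0.824% of SST cells and 0% of oligodendrocyte lineage cells and NGFC. The pooled PVALB share includes the Grin1-null cortical cells that chose the gene. In WT cortex alone the mean thinned shares were 1.15% in PVALB, 1.12% in SST and 0% in oligodendrocyte lineage cells. In WT hippocampus they were 0.379%, 0.0494% and 0%. The part of free RNA in these shares was not tested.

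**Figure D1:**
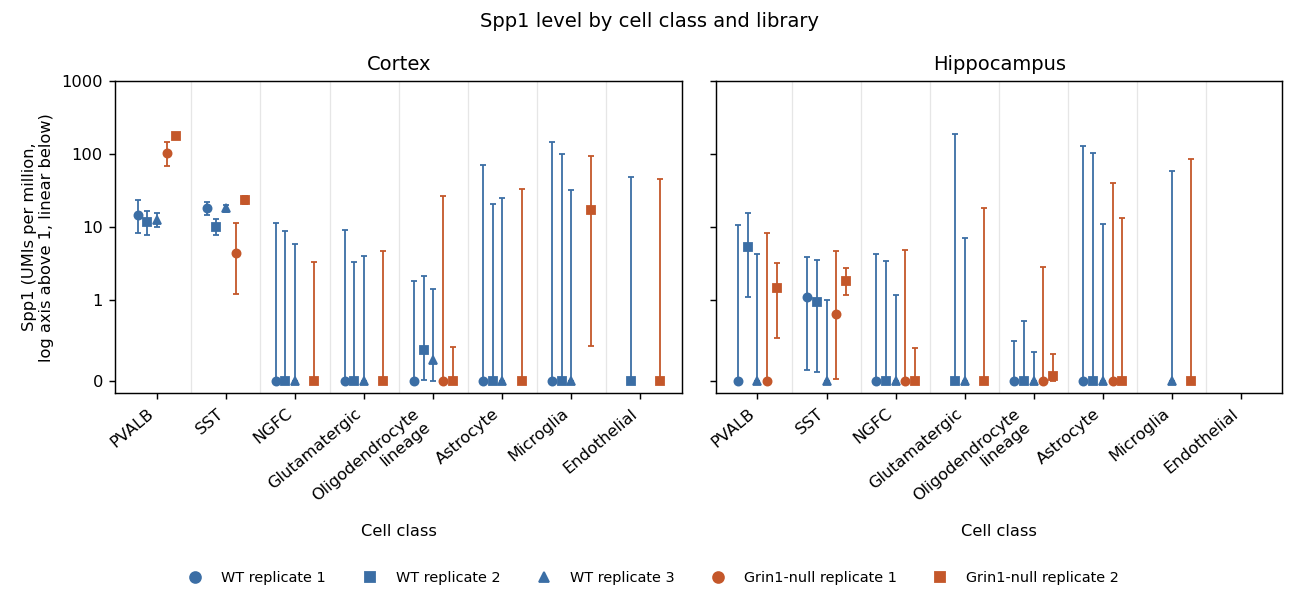
Spp1 level in CPM of each cell class (x axis), for every library with at least 10 cells of the class, in cortex and hippocampus; points are libraries and bars are exact Poisson 95% intervals. Cortical PVALB and SST cells gave Spp1 UMIs in each library, and the long bars of several other classes show how little their depth could resolve.

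Microglia, the cells best known for osteopontin, were few in the sorted preparation and gave 1 Spp1 UMI. The microglial cluster held 264 cells, and all 9 microglial markers were present in it, with the complement gene C1qa the most abundant, at 10436 CPM. Spp1 was seen in 1 of these cells, with 1 UMI, a share of 0.379% (0.0669% to 2.11%) at a median depth of 1240 UMIs. This cell was in Grin1-null cortex replicate 2, which had 29 microglia and a level of 17.1 CPM. The WT cortex libraries, with 16, 39 and 104 microglia, and the hippocampal libraries, with 74 microglia in all, gave 0 UMIs.

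Counting noise limits what these 264 microglia can show. In WT cortex replicate 3, the library with the most microglia, a count of 0 allows up to 26.3 CPM, a level above that of WT cortical PVALB cells. A count of 0 in a single library therefore did not exclude a microglial level like that of WT cortical PVALB cells. Pooled over all libraries, the upper bound of 15.8 CPM in microglia lay above the 12.4 CPM of WT cortical PVALB cells.

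The activation genes that often accompany Spp1 in microglia were present in libraries with and without a microglial Spp1 UMI. The 18 genes of this list summed to 14818, 10047 and 13409 CPM in microglia of WT cortex replicates 1, 2 and 3, which gave no Spp1 UMI, and to 19420 CPM in Grin1-null cortex replicate 2, which gave 1. Over all microglia the most abundant were the lysosomal protease genes Ctsd (5185 CPM), Ctsb (1931 CPM) and Ctsl (1420 CPM), and Tyrobp, the adaptor of the TREM2 receptor, at 3368 CPM. Clec7a and Gpnmb, which mark strongly activated microglia, were at 0 CPM, and Itgax was at 8.52 CPM. The microglial cluster also held markers of border macrophages, all 6 of 6, which summed to 1863 CPM with Pf4 the most abundant at 948 CPM, and their part in its Spp1 level was not tested.

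Outside the named classes, Spp1 stood out in cluster 30, a small group with markers of choroid plexus, mural cells and fibroblasts that was left unnamed for that reason and is shown apart after its values were seen. It held 36 Spp1 UMIs (2.45% of all) in 8 of 190 cells, a level of 32.8 CPM (23 to 45.5). By region the level was 289 CPM (179 to 442) in its 32 cortical cells and 14.7 CPM (8.20 to 24.2) in its 158 hippocampal cells. The cortical level rests on few cells, as a cell of Grin1-null cortex replicate 2 held 13 Spp1 UMIs. Over all unnamed clusters, 7 cells with 35 Spp1 UMIs scored highest for fibroblast markers, and C1qa was at 0 CPM in cluster 30.

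Within the interneurons, Spp1 was spread over several clusters and was missing from others. Cluster 2, the largest PVALB cluster, held 751 of its UMIs in 60 cells. SST cluster 7 held 256 UMIs in 55 cells, TH cluster 12 held 193 in 46, SST cluster 3 held 113 in 17, and cluster 15, with markers of SST and TH cells, held 71 in 18. Cluster 5, also SST and shallow (median 1530 UMIs), held 28 UMIs in 15 cells, and SST cluster 21, the Chodl and Nos1 cells that mark long-range projecting interneurons, held 15 in 4. The Pthlh-rich PVALB cluster 22 (402 cells) and SST cluster 23 (339 cells) gave 0, and PVALB cluster 31 gave 2 UMIs in 1 cell.

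Ordered by the mean of the WT cortex libraries, TH cluster 12 came first, at 39.1 ± 15.3 CPM (SD, n = 3). It was followed by cluster 7 (23.6 ± 26.0 CPM), cluster 15 (16.2 ± 22.6), cluster 2 (14.9 ± 1.88), cluster 3 (9.34 ± 14.7), cluster 5 (8.73 ± 7.85) and cluster 21 (3.56 ± 5.37). The library values of neighbours in this order overlapped, while those of clusters 12 and 2 did not. In cluster 12 the WT libraries were at 26.3, 56.1 and 34.9 CPM and in cluster 2 at 17.1, 14.1 and 13.6 CPM. The SST clusters varied by library: cluster 7 was at 52.6, 2.35 and 15.8 CPM, and cluster 15 at 41.9, 0 and 6.57 CPM, in WT cortex replicates 1, 2 and 3.

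**Figure D2:**
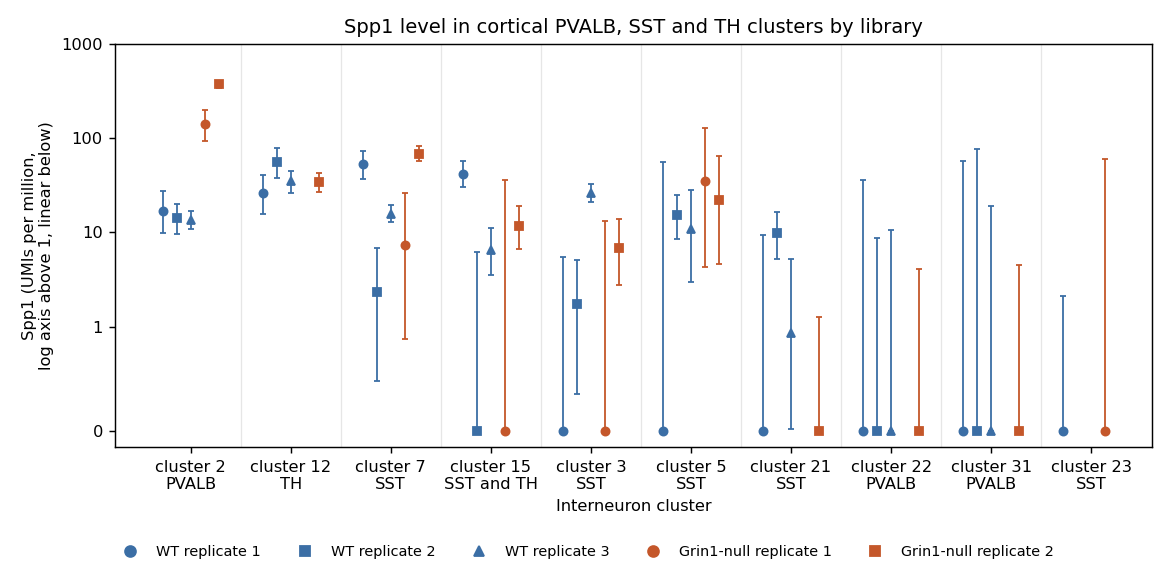
Spp1 level in CPM in 10 cortical PVALB, SST and TH clusters (x axis), for every library with at least 10 cells of the cluster; points are libraries and bars are exact Poisson 95% intervals. Cluster 2 was at 13.6 to 17.1 CPM in WT and at 140.2 and 373 CPM in Grin1-null libraries, and clusters 22, 31 and 23 gave 0 in cortex.

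Most cells with Spp1 held few molecules, and a handful held many. In PVALB cells of WT cortex replicates 1, 2 and 3, the median cell with Spp1 held 2, 2 and 3 UMIs, and the highest held 8, 8 and 11. In SST cells of the same libraries the median was 3, 2 and 2 UMIs and the highest cell held 13, 9 and 20. Grin1-null cortex replicate 2 stood apart: its median PVALB cell with Spp1 held 18 UMIs, 10 of its 14 such cells held at least 10, and its highest held 175 and 160 UMIs, 57.0% of the UMIs of the class in that library. In the highest of these cells Spp1 made up 0.653% of all its mRNA molecules, and in the next 1.28%.

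The contrast that chose the gene is the cortical PVALB class. Its question was how the loss of Grin1 goes with mRNA levels in interneurons, and Spp1 was higher in the Grin1-null libraries. The level was 14.5, 11.6 and 12.4 CPM in WT cortex replicates 1, 2 and 3, from 16, 31 and 80 UMIs. It was 103 CPM (68.8 to 147) and 178 CPM (164 to 193) in Grin1-null cortex replicates 1 and 2, from 29 and 588 UMIs. The means were 12.9 ± 1.49 CPM (SD, n = 3) and 140.5 ± 53.4 CPM (SD, n = 2), and the groups did not overlap.

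The shares of cells differed far less than the levels. Spp1 was seen in 5 of 140, 11 of 494 and 21 of 641 PVALB cells of the WT cortex libraries (3.57%, 2.23% and 3.28%). In the Grin1-null libraries it was seen in 3 of 28 cells (10.7%) and 14 of 249 cells (5.62%). Thinned to 1000 UMIs per cell, the shares were 0.714%, 1.02% and 1.73% in WT and 3.57% and 4.51% in Grin1-null libraries. These are the libraries that chose the gene, and the share of Grin1-null replicate 1 rests on 28 cells. The shares are a description, and the part of depth in the difference was not tested. The median depth of the class was 7720.5, 4892 and 9414 UMIs in WT and 7198 and 13929 UMIs in Grin1-null cortex.

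The higher level rested on few cells. In Grin1-null cortex replicate 1, 24 of the 29 UMIs (82.8%) were in 1 cell, and without the highest cell of each library the levels were 19.0 and 126 CPM in Grin1-null replicates 1 and 2 and 7.32, 8.63 and 10.7 CPM in WT replicates 1, 2 and 3. With each cell counted for at most 10 Spp1 UMIs they were 53.1 and 39.1 CPM against 14.5, 11.6 and 12.3 CPM. Both choices were made after the values were seen. The groups did not overlap under either, and the mean difference of 128 CPM became 63.7 and 33.3 CPM.

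How the cells were assigned to the PVALB class decided whether the difference was there. When each cell was placed by the marker list with its highest score in place of its cluster, Spp1 in cortical PVALB cells was at 16.1, 8.96 and 8.25 CPM in WT and 15.4 and 5.70 CPM in Grin1-null libraries, and the mean difference was -0.533 CPM. Of the 617 Spp1 UMIs in Grin1-null cortical PVALB cells by cluster, 525 (85.1%) were in 11 cells that scored as SST. A further 66 (10.7%) were in 1 cell that scored as glutamatergic, 21 (3.40%) in 4 cells that scored as PVALB and 5 (0.810%) in 1 cell that scored as microglia. By scores, Spp1 in cortical SST cells was 19.3, 11.3 and 18.8 CPM in WT and 35.1 and 75.7 CPM in Grin1-null libraries.

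**Figure D3:**
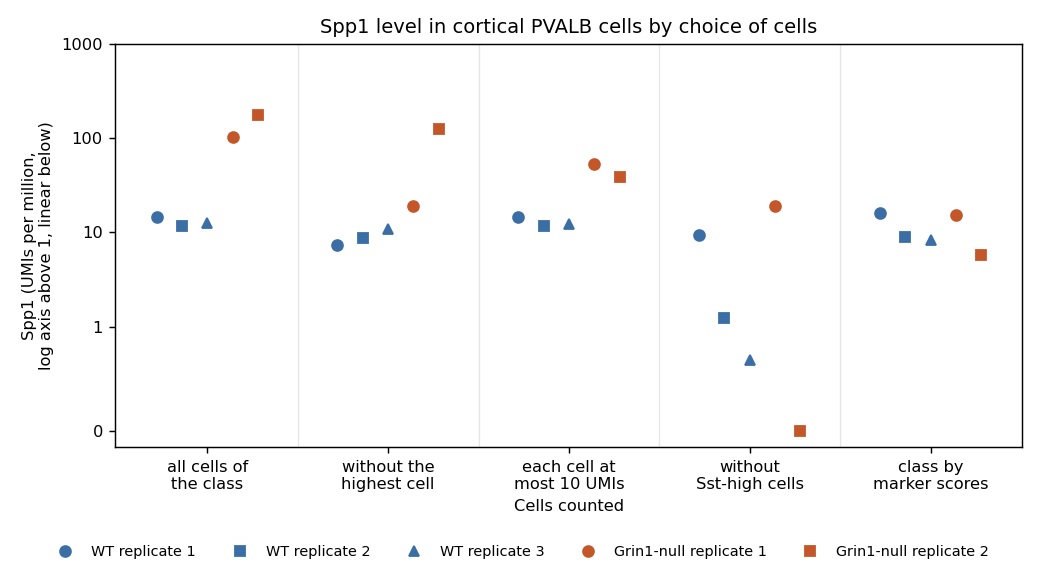
Spp1 level in CPM in cortical PVALB cells of each library (points), for 5 choices of which cells and UMIs are counted (x axis). The Grin1-null libraries lay above the WT libraries in the first 3 choices and overlapped them in the last 2.

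The Spp1 cells of the largest PVALB cluster were rich in neuropeptides of SST cells and poor in parvalbumin. In the 4 cortical libraries with at least 5 Spp1-positive cells of cluster 2, Npy (neuropeptide Y) ranked first by its smallest difference over the libraries, and was higher by 4.14 on the log2 scale in Grin1-null replicate 2 and by 3.84, 3.82 and 2.94 in WT replicates 1, 2 and 3. Sst was higher by 2.88, 3.88, 3.23 and 3.82 in the same order, and Cort (cortistatin, a peptide related to somatostatin) by 2.48, 2.31, 2.44 and 1.94. Syt2, a synaptotagmin of PVALB terminals, was lower, at -2.79, -3.11, -3.44 and -3.83, and so was Pvalb, at -3.00, -4.95, -2.89 and -1.96. Each of these differences had the same sign in the 4 libraries. These genes were chosen after the data were seen, cells are not replicates, and the differences were not tested.

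No UMI of the complement genes of microglia was seen in the same cells. C1qa, C1qb and C1qc were each at 0 CPM in the Spp1-positive cells of cluster 2 in each cortical library. Over all of cluster 2 C1qa was at 0.668 CPM, so 0 in these few cells does not set them apart from the cluster. In Grin1-null replicate 2, the 14 positive cells held Gad1, which makes the GABA of inhibitory neurons, at 1028 CPM and Npy at 27233 CPM. The other 103 cells of the cluster held Gad1 at 1347 CPM and Npy at 1533 CPM.

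In SST cluster 7 and TH cluster 12, the other clusters examined in this way, cells with Spp1 were also richer in Npy and Cort in each cortical library with at least 5 such cells. In cluster 7, Npy was at 18133 CPM in the 31 Spp1-positive cells of WT cortex replicate 3 and at 2508 CPM in the others, and Cort at 3765 against 447 CPM. In cluster 12 of that library, Npy was at 9318 CPM in the 15 positive cells and 1486 CPM in the others, and Cort at 3481 against 1374 CPM. In WT replicate 1, Npy was at 23454 against 6761 CPM in cluster 7 and 6255 against 1418 CPM in cluster 12, and in cluster 12 of WT replicate 2 at 8688 against 2710 CPM. Pvalb was not lower throughout: in cluster 12 it was at 712 against 364 CPM in Grin1-null replicate 2 and at 256 against 433 CPM in WT replicate 3. In Grin1-null replicate 2, Npy was at 18025 against 2913 CPM in cluster 7 and 2370 against 377 CPM in cluster 12, and Cort at 5277 against 552 and 695 against 399 CPM. These values are a description of cells that share their libraries.

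Split by Sst, cluster 2 held most of its cortical Spp1 in the Sst-rich cells, except in WT cortex replicate 1, where they held 6 UMIs and the others 10. The split, at 1000 CPM of Sst in the cell, was chosen after the data were seen. In Grin1-null cortex replicate 2 all 588 UMIs were in the 22 Sst-rich cells (2041 CPM), and the 95 others gave 0. In Grin1-null replicate 1, 24 UMIs were in 1 Sst-rich cell (1273 CPM) and 5 in the 18 others (26.6 CPM). In WT the Sst-rich cells were at 208, 107 and 147 CPM, in 4, 54 and 61 cells, and the others at 11.0, 1.55 and 0.745 CPM. The levels of the Grin1-null libraries here are the same UMIs that chose the gene, and in replicate 1 they come from 1 Sst-rich cell.

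Sst-rich cells made up 3.48%, 13% and 10.3% of cluster 2 in the WT cortex libraries and 5.26% and 18.8% in the Grin1-null cortex libraries. Without them, Spp1 in the cortical PVALB class was 9.31, 1.25 and 0.676 CPM in WT and 19.0 and 0 CPM in Grin1-null libraries, and the groups overlapped. In hippocampus they were 31.6%, 17.5% and 55.4% of cluster 2 in WT and 37.5% and 10.3% in Grin1-null libraries, yet they held 3 Spp1 UMIs in all, in WT replicate 2.

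**Figure D4:**
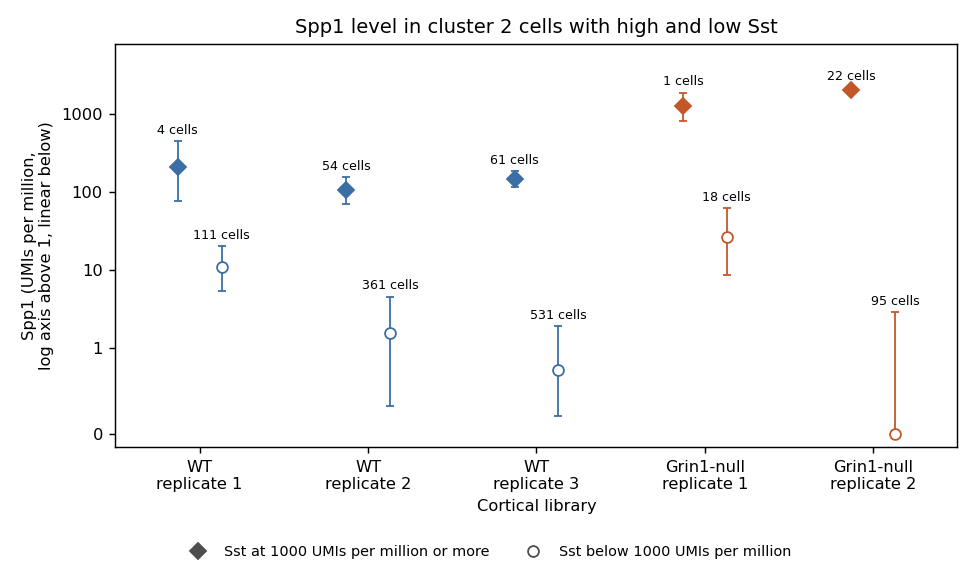
Spp1 level in CPM in cluster 2 cells of each cortical library (x axis), for cells with Sst at 1000 CPM or more (diamonds) and below (circles); bars are exact Poisson 95% intervals and the number of cells stands above each. Sst-rich cells were at 107 to 208 CPM in WT and at 1273 and 2041 CPM in Grin1-null libraries.

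The proportions of PVALB clusters also differed between the libraries. Cluster 2 made up 82.1%, 84.0% and 92.4% of cortical PVALB cells in WT replicates 1, 2 and 3, and 67.9% and 47.0% in Grin1-null replicates 1 and 2. Within cluster 2 alone, Spp1 was at 17.1, 14.1 and 13.6 CPM in WT and 140.2 and 373 CPM in Grin1-null libraries, and the mean difference was 242 CPM. The class mean thus held the higher level of cluster 2 diluted by clusters without Spp1.

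Co-detection asks whether Spp1 and parvalbumin mRNA were found in the same cells. Among cortical interneurons, Spp1 was seen in 59 of 2116 cells with a Pvalb UMI (2.79%) and in 139 of 4137 cells without (3.36%), at median depths of 8772 and 6892 UMIs. By library, the shares with and without Pvalb were 3.33% and 3.29%, 2.01% and 1.80%, and 2.16% and 4.43% in WT cortex replicates 1, 2 and 3. They were 6.06% and 2.63% in Grin1-null cortex replicate 1 and 4.35% and 3.94% in replicate 2. The mean difference over the 5 libraries was 0.362 ± 2.03 percentage points (SD), smaller than its spread.

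Within the cortical PVALB class, cells without a Pvalb UMI held Spp1 more often, in 28 of 346 (8.09%) against 26 of 1206 with Pvalb (2.16%). By library the shares without and with Pvalb were 13.3% and 2.40%, 5.84% and 0.840%, and 7.86% and 2% in WT replicates 1, 2 and 3. They were 13.7% and 3.54% in Grin1-null replicate 2, and the other way in replicate 1, at 0 of 3 cells and 3 of 25. The cells without Pvalb were shallower, with a median of 5642.5 against 8810 UMIs. At 1000 UMIs per cell the shares were 3.70% without and 0.359% with Pvalb. For Sst the order was the reverse in each library: in the same class Spp1 was seen in 52 of 620 cells with a Sst UMI (8.39%) and in 2 of 932 without (0.215%). A Sst or Pvalb UMI alone does not show that a cell makes the message, since oligodendrocyte cluster 0 held Sst at 46.6 CPM and Pvalb at 3.81 CPM, and free RNA was not told apart here.

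Spp1 and C1qa were seen together in 2 cells of the whole data. The first was the microglia of Grin1-null cortex replicate 2, with 1 Spp1 and 28 C1qa UMIs. The other was a cluster 7 SST cell of WT cortex replicate 3, with 7 Spp1, 19 C1qa, 14 Tyrobp and 503 Sst UMIs, which Scrublet marked as a doublet. Among all interneurons, 27 had a C1qa UMI and 1 of them held Spp1.

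Whether the loss of Grin1 went with a change of Spp1 was tested outside the contrast that chose the gene. The tests used edgeR on UMI sums per library, at an adjusted p under 0.01. Each fit took in all groups of region and genotype of its class, so the hippocampal PVALB fit held the cortical libraries that chose the gene. In cortical SST cells Spp1 did not pass. Its level was 18.1, 9.98 and 18.0 CPM in WT replicates 1, 2 and 3, from 95, 65 and 261 UMIs, and 4.44 and 23.7 CPM in Grin1-null replicates 1 and 2, from 4 and 223 UMIs. The Grin1-null libraries lay below and above all WT libraries. The means were 15.4 ± 4.66 CPM (SD, n = 3) and 14.1 ± 13.6 CPM (SD, n = 2), and edgeR gave a log2 change of 0.07 ± 0.54 (SE) with an adjusted p of 0.999.

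The clusters of the cortical SST class were mixed differently in each library. Cluster 23, without Spp1, made up 36.2%, 0.417% and 0.364% of the class in WT replicates 1, 2 and 3 and 10.0% and 0.546% in Grin1-null replicates 1 and 2. Cluster 21, with little, made up 5.29%, 11.3% and 3.64% in WT and 2.73% and 20.4% in Grin1-null replicates. Single libraries set the Spp1 level of these clusters: cluster 7 was at 7.31 and 68.7 CPM in Grin1-null replicates 1 and 2, against 52.6, 2.35 and 15.8 CPM in WT, and the groups overlapped. The part of this mixture in the class value was not tested.

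The direction of this cortical SST value depended on single libraries. It was -1.76 without Grin1-null cortex replicate 2, 0.59 without Grin1-null cortex replicate 1 and -0.18 without WT cortex replicate 2. Of the 12841 genes tested, edgeR called 0 (0%), 281 had an unadjusted p under 0.05, and DESeq2 called 2.

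In hippocampal SST cells Spp1 was near the limit of detection. It was at 1.09, 0.981 and 0 CPM in WT replicates 1, 2 and 3, from 2, 2 and 0 UMIs, and at 0.830 and 1.83 CPM in Grin1-null replicates 1 and 2, from 1 and 23 UMIs. The groups overlapped, and the pooled ratio of Grin1-null to WT was 3.28 (counting interval 1.13 to 13), on 24 and 4 UMIs. In Grin1-null replicate 2, 69.6% of the 23 UMIs were in 2 cells, with 10 and 6 UMIs. The counting interval does not cover such spread between cells and libraries. In a fit of only the hippocampal groups Spp1 did not pass the filter on low counts. It passed in the fit of all groups, which holds the larger cortical counts. In that fit the log2 change by edgeR was 1.52 ± 1.03 (SE), with an adjusted p of 0.974. It was 0.61 without Grin1-null hippocampus replicate 2, 0.65 without WT hippocampus replicate 3, and 2.11 and 2.09 without WT hippocampus replicates 1 and 2. Here edgeR called 0 of 12841 genes (0%), with 469 at an unadjusted p under 0.05, and DESeq2 called 2. The difference between the genotype effects in cortex and hippocampus, tested by an interaction term in edgeR, was -1.45 ± 1.17 (SE) on the log2 scale, with an adjusted p of 1.

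Hippocampal PVALB cells held almost no Spp1 in either genotype. The counts were 0, 3 and 0 UMIs in the 53, 187 and 77 cells of WT replicates 1, 2 and 3 (0, 5.26 and 0 CPM), and 0 and 6 UMIs in the 32 and 260 cells of Grin1-null replicates 1 and 2 (0 and 1.46 CPM). The groups overlapped. In a fit of only the hippocampal groups Spp1 did not pass the filter on low counts. The edgeR fit of all groups took in the cortical libraries that chose the gene. Its log2 change was -0.42 ± 1.14 (SE), with an adjusted p of 0.9998, and does not stand apart from the choice. The log2 change was 4.52 without WT hippocampus replicate 2, -4.64 without Grin1-null hippocampus replicate 2 and -1.35 without WT hippocampus replicate 3. Its sign thus rested on 1 library. For this class edgeR called 0 of 9724 genes (0%), with 304 at an unadjusted p under 0.05 and 1 call by DESeq2. No level near that of Grin1-null cortical PVALB cells was seen here, and 3 and 6 UMIs could not settle a change between the genotypes. The difference between the regions was not tested for PVALB, since the cortical contrast chose the gene.

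Spp1 did not pass the filter on low counts in NGFC and in the oligodendrocyte lineage, and was given no test there. NGFC gave 0 UMIs in each of the 10 libraries. The oligodendrocyte lineage gave 1 UMI each in WT cortex replicates 2 and 3 and Grin1-null hippocampus replicate 2, and 0 in the others. For the genotype in hippocampal NGFC edgeR called 0 of 10013 genes (0%), 327 had an unadjusted p under 0.05 and DESeq2 called 1. In the oligodendrocyte lineage edgeR called 0 of 12027 (0%) in cortex and in hippocampus, with 189 and 317 at an unadjusted p under 0.05 and 0 calls by DESeq2 in each.

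Between the regions, Spp1 was far higher in cortical than in hippocampal SST cells of WT mice. Cortical replicates 1, 2 and 3 were at 18.1, 9.98 and 18.0 CPM, and hippocampal replicates at 1.09, 0.981 and 0 CPM, so the groups did not overlap. Replicate 1 had a cortex to hippocampus ratio of 16.6 (counting interval 4.48 to 139), and replicate 2 had 10.2 (2.71 to 85.8). For replicate 3, where hippocampus gave 0 UMIs in 360 cells, cortex was 21.8-fold above the floor of 3 counts in that library, and the lower counting bound of the ratio was 17.6. Pooled, the ratio was 30.1 (11.7 to 111), on 421 and 4 UMIs.

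The share of each cluster in the SST class differed between the regions, and not alike in each replicate. In WT replicate 2, cluster 5 was 33.8% of the class in cortex and 68.7% in hippocampus, and cluster 12 was 7.84% and 0.362%. In replicates 1 and 3 these clusters differed less. Cluster 5 was 3.04% and 12.7% in cortex and 4.26% and 15.3% in hippocampus. Cluster 12 was 15.7% and 11.7% in cortex and 15.2% and 15.6% in hippocampus. Within clusters, pooled over the WT libraries, Spp1 was also higher in cortex: cluster 7 was at 16.7 CPM in cortex and gave 0 UMIs in 180 hippocampal cells, which allows up to 1.59 CPM, and cluster 12 was at 36.8 against 1.19 CPM, on 107 UMIs and 1. These values within clusters were not tested.

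The test of this difference ended on either side of the threshold by how it was fitted. The log2 change from cortex to hippocampus in edgeR was -4.80 ± 0.68 (SE), lower in 3 of 3 hippocampal libraries, with an adjusted p of 0.0324, which missed 0.01. With the replicate number as a block it was -4.85 with an adjusted p of 9.05e-06 by edgeR, and by DESeq2 -4.84 with 3.27e-06; over the 17 alternatives the adjusted p ran from 6.29e-07 to 0.169. The block was an alternative, and the chosen fit had none. Deviations from the group mean correlated between WT cortex and hippocampus libraries of the same number, at 0.659, 0.618 and 0.387 in SST cells. Replicate number also goes with chemistry and with depth, and what these correlations reflect was not tested. Left out 1 at a time, WT hippocampus replicate 3 gave -3.95 and WT hippocampus replicate 1 gave -5.40. The labels do not say whether both regions of a replicate came from the same animals.

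Few genes passed in that comparison. Of 11973 genes tested in SST cells, edgeR called 5 (0.0418%), with 910 at an unadjusted p under 0.05, DESeq2 called 152, and edgeR with the replicate block 385. Named after their values were seen, these were Ctsc, a lysosomal protease gene (5.18), RP24-323H7.4 (4.20), Aga, a lysosomal amidase gene (4.56), and Tenm2, a synaptic adhesion gene (2.25), higher in hippocampus, and Sfrp2, a secreted Wnt modulator gene (-3.72), lower (log2, edgeR). The count was 0 without WT cortex replicate 1, 2 or 3 or WT hippocampus replicate 3, and 2 without WT hippocampus replicate 1.

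PVALB cells of WT mice had the same order of regions. Spp1 was at 14.5, 11.6 and 12.4 CPM in cortex and 0, 5.26 and 0 CPM in hippocampal replicates 1, 2 and 3, with no overlap, and the pooled ratio was 7.44 (2.49 to 36.5) on 127 and 3 UMIs. The log2 change from cortex to hippocampus in edgeR was -2.85 ± 0.80 (SE), with an adjusted p of 0.495, so it did not pass. The WT cortical PVALB libraries are also one arm of the contrast that chose the gene, so this test does not stand apart from the choice. With the replicate block the adjusted p was 0.124 by edgeR (0.0167 to 1 over the 16 alternatives). The value was -7.86 without WT hippocampus replicate 2, whose 3 UMIs were the only ones in that group, and -1.95 without WT hippocampus replicate 3.

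In PVALB cells edgeR called 3 of 8831 genes between the regions (0.034%), with 376 at an unadjusted p under 0.05, DESeq2 called 22, and edgeR with the replicate block 38. Named after their values were seen, these were Lamp5, a membrane protein gene of synaptic vesicles (6.30), Rxfp3, a relaxin-family peptide receptor gene (6.79), and Ddit4l, an inhibitor of mTOR signalling (4.21), each higher in hippocampus (log2, edgeR). The count was 0 when any 1 of the 6 WT libraries was left out. In NGFC edgeR called 0 of 7942 genes between the regions (0%), with 210 at an unadjusted p under 0.05, 5 by DESeq2 and 11 with the block. In the oligodendrocyte lineage edgeR called 0 of 11186 (0%), with 268 at an unadjusted p under 0.05, 5 by DESeq2 and 179 with the block.

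In Grin1-null mice SST cells had the same order of regions. The pooled cortex to hippocampus ratio of Spp1 was 12.6 (counting interval 8.26 to 20.1), on 227 and 24 UMIs, of which replicate 2 held 223 and 23. In replicate 1 the levels were 4.44 and 0.830 CPM, on 4 UMIs and 1. The PVALB cells of these libraries are the ones the gene was chosen for, and are not compared here.

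Of the receptors of osteopontin, the integrin chain Itgb1 had the highest level in PVALB and SST cells. The list of 12 receptor genes summed to 66.4 CPM in PVALB cells, 53.1 in SST cells and 1139 CPM in microglia. In PVALB cells the highest were Itgb1 (29.4 CPM), the alpha chain Itga9 (15.8), the alpha chain Itgav (6.11) and Itgb8 (5.51). In microglia they were Itgb5, the beta chain that pairs with the alpha chain of Itgav, at 670.1 CPM, and Itgb1 at 269.8, Itgav at 62.5 and Itga9 at 51.1 CPM. Cd44, the other known receptor, was at 0.646 CPM in PVALB cells, 3.65 CPM in SST cells and 14.2 CPM in microglia. Levels of different genes are not corrected for transcript length.

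Of the 9 enzyme genes that act on osteopontin, 2 were well expressed in interneurons. Fam20c, the secretory-pathway kinase, was at 34.8 CPM in PVALB and 30.1 CPM in SST cells, and Ctsd, the lysosomal protease cathepsin D, at 233 and 225 CPM. Mmp3 and Mmp7 were at 0 CPM in these classes, and Mmp9 at 0.993 and 1.18 CPM. The thrombin gene F2 was at 0.0993 CPM in PVALB cells. The 4 relatives of Spp1 in the same family of integrin-binding phosphoproteins of bone and tooth, Ibsp, Dmp1, Dspp and Mepe, each stayed under 1 CPM in PVALB and SST cells, and summed to 0.546 and 0.553 CPM.

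No member of these lists passed in the edgeR tests of genotype or region. The genotype test in cortical SST cells could miss a large change. Grin1, the deleted gene, itself missed the threshold there, at a log2 change of -2.74 and an adjusted p of 0.0324 by edgeR. In cortical SST cells edgeR called 0 of the 7 receptors, 2 enzymes, 9 activation genes and 5 handling genes that could be tested, out of 12, 9, 18 and 5. Their median log2 changes were 0.14, 0.09, -0.31 and -1.41, against -0.02 over all genes. In the region comparison of SST cells edgeR called 0 of 5 receptors, 2 enzymes, 8 activation genes and 4 handling genes, with medians of 0.35, -0.18, -0.13 and 0.42 against 0.02 over all genes. As 0.0418% of all genes were called there, 0 calls in lists of this size say little about them. No member of the family list reached the filter in either, and edgeR called 0 members of these lists in the other 8 comparisons as well; DESeq2 counts are those given above for all genes.

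The immediate early and heat shock genes Fos, Jun, Egr1, Hspa1a and Hspa1b were followed as signs of handling. The tissue was processed in blockers of sodium channels, NMDA receptors and transcription, which act against their induction. In cortical SST cells they summed to 98.9, 769 and 145 CPM in WT replicates 1, 2 and 3 and to 103 and 212 CPM in Grin1-null replicates. In cortical PVALB cells the sums were 79.8, 749 and 137 CPM in WT and 56.7 and 226 CPM in Grin1-null replicates. WT cortex replicate 2 stood above the others, and it had the lowest Spp1 level of the WT libraries in cortical SST and PVALB cells. The part of handling in the Spp1 levels was not tested.

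The genes whose levels followed Spp1 most closely were sought over 32 sums of class, region and genotype, in log2 of CPM plus 1. The highest of these sums is Grin1-null cortical PVALB cells, for which the gene was chosen, so the ranking draws on the values that chose it. Among 14883 genes the highest Pearson correlations were those of 4632428C04Rik (0.79), Mybpc1 (0.73), Lrrc38 (0.72), Crabp1 (0.71), 1700001O22Rik (0.71), Prokr2 (0.70), Th (0.70) and RP23-335B9.5 (0.68). The first of these was highest in Grin1-null cortical microglia, at 16.3 CPM, the same level as Spp1 there, where Spp1 rests on 1 UMI. Crabp1, a retinoic acid binding protein, was highest in Grin1-null cortical PVALB cells, at 382 CPM. It leads PVALB cluster 31, which gave 0 Spp1 UMIs in cortex and made up 7.14%, 2.02% and 2.81% of PVALB cells in the WT and 25% and 22.9% in the Grin1-null cortex libraries. The class sums do not show whether correlated genes share cells. Th makes the enzyme of catecholamine synthesis and was highest in Grin1-null cortical SST cells, at 87.4 CPM.

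Over 46 sums of interneuron cluster, region and genotype, the closest of 13152 genes was Nts, the precursor of the peptide neurotensin, at a correlation of 0.78. It was followed by the zinc transporter gene Slc39a8 (0.69), RP24-146B4.3 (0.65), the nuclear receptor gene Nr4a2 (0.63), the cholecystokinin receptor gene Cckbr (0.63), Ctsd (0.63), the gastrin-releasing peptide gene Grp (0.63) and Nptx1 (0.62), a neuronal pentraxin. Nts and Grp were highest in Grin1-null cortical cells of cluster 2, at 59.5 and 111 CPM, where Spp1 was highest as well and which hold the values that chose it. The sums share libraries and depth, so these correlations are a description.

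The Spp1 gene lies on chromosome 5 of the mouse genome build GRCm38, from 104435118 to 104441050 on the forward strand, under the identifier ENSMUSG00000029304. The GENCODE annotation gives it 7 transcripts. The next gene downstream on the same strand, Pkd2, starts at 104459450, 18400 bases away. An unconfirmed model, Gm42793, overlaps its start from 104435121 to 104436372 and was absent from the count matrices. Counts were made from the ends of transcripts, so they do not tell the transcripts apart.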

How the data were processed

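The authors aligned reads to the mouse genome mm10 with Cell Ranger 2.1.1, after extending gene ends downstream, and deposited UMI counts per gene and cell. The header of the matrices names another version of Cell Ranger. Barcode suffixes were matched to replicates by their exact cell numbers in the study's methods. From the deposited counts, a cell was kept if it had 200 to 6000 genes and its mitochondrial share was under 30%, and kept cells were integrated and clustered with Seurat 5.3.0 (R 4.3.3; 2000 variable features, among them Spp1, 25 dimensions, resolution 1). Of the 34 clusters 29 were named from marker lists and 5 were left unnamed. Cluster 26 was left unnamed, and cluster 15 given a double name, after their leading genes were seen.

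UMIs were summed by library and class (at least 10 cells) and tested with edgeR 4.0.16 (quasi-likelihood, TMM scaling, filter on low counts, Benjamini-Hochberg over all genes tested). Passing took a natural-log change of 0.1 or more together with an adjusted p below 0.01, and standard errors are the log2 change over the square root of F. DESeq2 1.42.0 was an alternative, beside other scaling, filters, cell classes, doublets by Scrublet and leaving out each library. Scrublet ran in scanpy 1.11.5, and levels were computed with pandas 2.3.3, scipy 1.17.1 and numpy 2.4.6 under Python 3.11.15. The steps that compute statistics were tested on simulated data. The simulated counts for edgeR had a fixed spread that was not fitted to these libraries, so they do not show what the tests could find here.

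Thinning drew 1000 UMIs from each of 23067 cells, and 3134 cells were too shallow for it. The floor for a count of 0 is 3 counts. Replicate numbers come from the methods, and same-number WT libraries of cortex and hippocampus correlated at 0.659, 0.618 and 0.387 in SST, 0.514, 0.553 and 0.320 in PVALB and 0.492, 0.420 and 0.187 in NGFC cells. The gene, its lists and the comparisons were chosen with earlier results of these data known. The summed level of the microglial markers in interneurons is not reported here.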

Additional observations from a re-analysis of the deposited data

Results flagged for a closer look

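Spp1 UMIs were also found in barcodes that the cell filter removed, which no comparison above uses. In WT cortex replicate 2 there were 18 such UMIs, in 1 barcode with 24464 UMIs and 6174 genes, above the limit of 6000 genes. It held 29 Gad1, 7 Sst, 84 Npy and 25 Pvalb UMIs. In Grin1-null hippocampus replicate 2 there were 10, in 4 barcodes with 7, 1, 1 and 1 UMIs. Of these, 3 had more than 6000 genes, and the first held 692 Sst and 295 Npy UMIs, while the last had 44.5% mitochondrial UMIs. Grin1-null cortex replicate 2 also gave 2 Spp1 UMIs, in 2 removed barcodes with 95.3% and 86.8% mitochondrial UMIs. These values stand here because they are a signal in data left out of the comparisons, for the first 2 libraries above what a count of 0 allows, and the difference between libraries was not tested.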

How the results depend on the processing

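Of 79 alternatives to the 5 tested results, 70 kept the direction and the side of the threshold and 4 passed where the chosen fit did not. Of 71 alternatives to untested values, which have no threshold and in NGFC are mostly 0 against 0, 65 were the same and 5 moved. Over both, 6 reversed. For SST cells between regions, the log2 change (-4.80) passed at 0.05, with DESeq2 (-4.84), with no filter on low counts (-4.87) and with the replicate block (-4.85); leaving out each library it ran from -5.40 to -3.95. The genotype value in cortical SST cells (0.07) was reversed with DESeq2 (-0.0053), without Grin1-null cortex replicate 2 (-1.76) and without WT cortex replicate 2 (-0.18), from -1.76 to 0.59 over the libraries. With classes by marker scores it was 1.80, in a class that takes in cells whose values chose the gene. That in hippocampal PVALB cells (-0.42) was reversed with classes by marker scores (3.77) and without WT hippocampus replicate 2 (4.52), from -4.64 to 4.52 over the libraries. The cause was not tested. The untested cortical PVALB difference (128 CPM) was -0.533 with marker scores, 242 in the largest cluster, and, by choices made after seeing the data, 63.7 without the highest cell, 33.3 with at most 10 UMIs per cell and 5.74 without Sst-rich cells; in the 10 other alternatives it was 89.8 to 165. With marker scores, NGFC of hippocampus moved from 0 to 0.0531 CPM. Called genes in SST cells between regions were 5, against 38 at 0.05, 152 by DESeq2, 385 with the block, 170 with no filter, 3 without doublets and 0 by marker scores; in PVALB cells 3, against 7, 22, 38 and 84. With no filter the genotype counts, 0 by edgeR, were 22 and 20 in SST cells of cortex and hippocampus, 15 in PVALB and 21 in NGFC cells of hippocampus, and 8 and 24 in the oligodendrocyte lineage; their counts at an unadjusted p under 0.05 and by DESeq2 are given above. Between regions in NGFC (0) they were 11 with the block and 35 with no filter, and in the oligodendrocyte lineage (0) 179 and 7. The block changed no other call on Spp1. In fits of only the groups compared, for hippocampal PVALB and SST cells, and with marker scores for PVALB between regions, Spp1 did not pass the filter on low counts and has no value. The microglial level (2.84 CPM) was 2.88 CPM in the 261 cells without doublets and 9.63 CPM in the 43 kept by the stricter filter, from the same 1 UMI. Depth limits the small classes: 3 counts are 8.52 CPM in the 264 microglia and 10.6 CPM in the 94 endothelial cells.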
